A study of Homo sapiens with 6 samples.

Results

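The collagen genes are the 44 rows of the deposited gene count table, of 60835 unique gene names, whose symbol is COL, a collagen type number, A and a chain number. They were picked by name alone, and all 44 are accounted for here. The RNA came from SW620 cells, a widely used human line of colon cancer that was grown from a lymph node metastasis. Cells with a control short hairpin vector (shControl, genotype label WT) gave 3 libraries, and cells whose labels give stable DNM1 knockdown (shDNM1, genotype label DNM1 Knockdown) gave another 3. DNM1 encodes dynamin 1, a GTPase of vesicle scission, and the comparison asks which mRNAs differ when it is lowered. All shControl libraries carry the label batch_A and all shDNM1 libraries the label batch_B, so batch and vector cannot be told apart in any value below. The cells are 1 line in culture with no stroma, the labels do not say whether the transduced cells were a pool or 1 clone, and nothing says that the libraries of a group were separate cultures. The p-values therefore measure the spread between these libraries only, which may be technical.

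Collagens are secreted or membrane-bound proteins in which chains of glycine-rich repeats wind into a triple helix. Some types are homotrimers of 1 chain, and others need chains from different genes. Fibril-forming types make the tensile fibres of connective tissue, type IV makes the sheet of the basement membrane under an epithelium, and smaller families decorate fibrils, anchor the epithelium or stay in the plasma membrane. In the intestine the fibrillar types come mainly from fibroblasts, while epithelial cells contribute to the basement membrane and its anchoring structures.

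Library totals ran from 12844534 to 13537519 counts. DNM1 itself, the targeted gene, had 127, 127 and 133 CPM (counts per 1000000, with library sizes scaled by TMM, a factor that aligns libraries on most genes) in shControl replicates 1, 2 and 3, and 126, 97.8 and 126 CPM in the shDNM1 replicates. The groups did not overlap, but replicates 1 and 3 of shDNM1 lay just under the lowest control. The log2 fold change was -0.15 (SE 0.083, adjusted p = 0.189). A two-sided exact permutation test of the CPM gave p = 0.1, its lower limit with 3 libraries a group. Of 18 other settings, with adjusted p from 0.0399 to 0.718, the DNM1 difference passed only without shDNM1 replicate 1 (log2 fold change -0.20, adjusted p = 0.0399) or with a GC trend removed (adjusted p = 0.0482). Without shDNM1 replicate 2 it was -0.04. The second group is therefore called the libraries labelled shDNM1, and the directions below are between labelled groups.

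Of the markers of colon epithelium, KRT8, KRT18, KRT19, EPCAM, CDH1 and VIL1 were abundant, whereas CDX1 had 0 counts in all libraries and KRT20, CDH17 and LGALS4 were near 1 CPM or below. Over the 11 markers of that list the summed level was 8558 to 9351 CPM in shControl and 9918 to 11230 CPM in the libraries labelled shDNM1. Most of that rise was in KRT8, from 5776 ± 264.5 to 6939 ± 389.3 CPM (SD, n = 3). Of the 9 tested, 5 rose, CDX2 the most in ratio, from 8.06 ± 1.49 to 19.95 ± 1.48 CPM, and EPCAM fell from 419.9 ± 11.8 to 372.1 ± 9.45 CPM. Over all genes tested, 15.6% were called higher and 16.2% lower, and the difference from these shares was not tested. Of 10 fibroblast markers, POSTN, FAP, DPT and TCF21 had 0 counts everywhere, and the list summed to 22.1 to 27.0 CPM in shControl and 32.3 to 46.0 CPM in the other group, nearly all of it LUM and PDGFRB. Both of these rose. The smooth muscle and pericyte list (6 genes) summed to 17.8 to 20.8 against 25.5 to 28.2 CPM, and the endothelial list (6 genes) to 17.6 to 20.6 against 18.7 to 23.2 CPM. The leukocyte list (6 genes) summed to 4.13 to 4.98 against 1.90 to 2.55 CPM, and the kidney list (5 genes, for packaging cells of viral vectors) to 35.4 to 42.1 against 29.5 to 35.7 CPM. The part of these shifts in the collagen differences was not tested. The fibroblast collagens COL1A2 and COL3A1 had 1 and 0 counts over all 6 libraries. In bulk RNA, fewer cells of a kind and less RNA per cell cannot be told apart.

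The collagen mRNA of these cells came from few genes. Compared per length as deposited TPM (transcripts per 1000000, a level that allows for gene length), COL9A3, COL6A1, COL18A1, COL7A1 and COL16A1 made up 85.8% of the summed collagen level. These 5 had a mean of at least 10 TPM over all libraries and 14 of the 44 a mean of at least 1 TPM. At the other end, 11 members had 0 counts in every library, which allows up to 3 counts, or 0.222 to 0.234 CPM, in each. They were COL3A1, COL5A1, COL6A5, COL9A1, COL14A1, COL15A1, COL19A1, COL21A1, COL22A1, COL23A1 and COL25A1. A further 15 members had counts but too few for the test. The remaining 18 (40.9%, against 27.5% of all rows) passed edgeR's filter on low counts, which needs about 10 counts in as many libraries as the smaller group has.

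**Figure D1:**
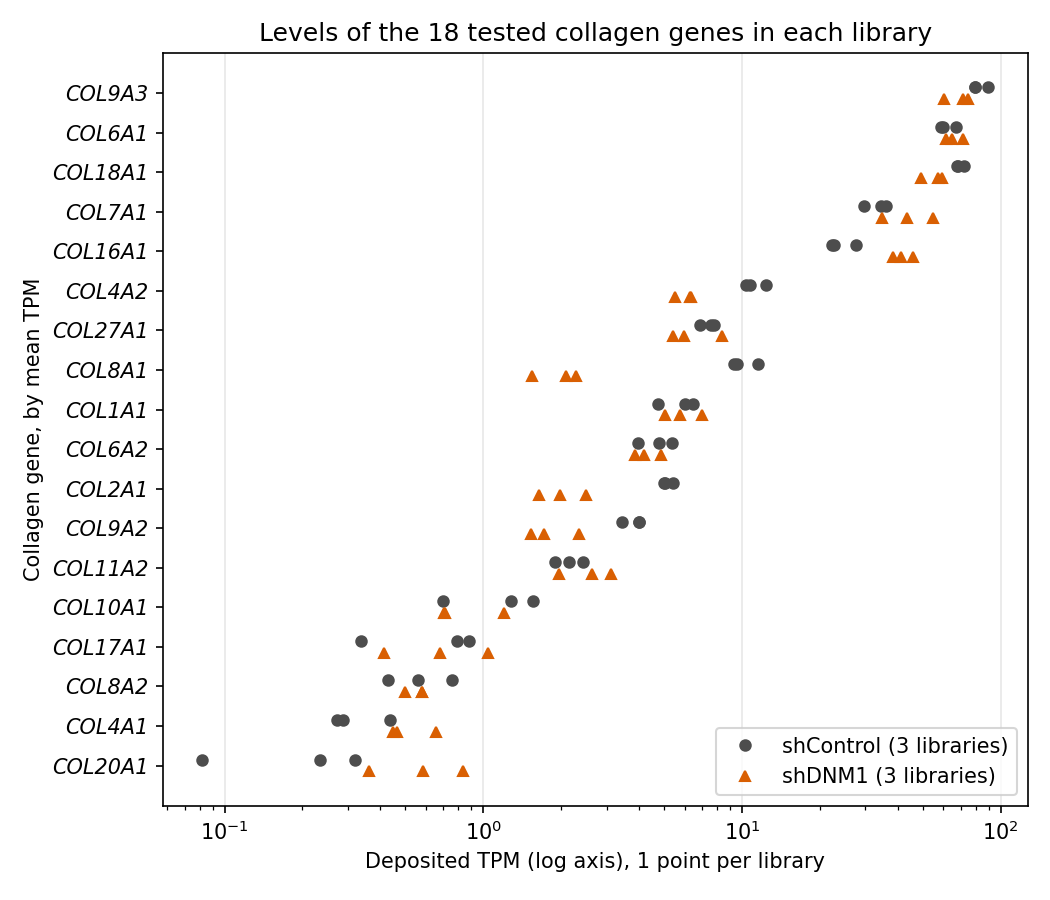
Deposited TPM (x axis, log scale) of the 18 tested collagen genes, with 1 circle for each shControl library and 1 triangle for each library labelled shDNM1. COL8A1 and COL2A1 show the clearest gap to the left, from 9.28 to 11.5 down to 1.54 to 2.29 TPM for COL8A1, and COL16A1 the clearest gap to the right.

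In the libraries labelled shDNM1, COL16A1, COL7A1 and COL20A1 rose and COL8A1, COL2A1, COL9A2, COL4A2 and COL18A1 fell. These are 3 collagen genes up and 5 down of the 18 tested, at an adjusted p under 0.05. Over all 16744 genes tested, 31.9% passed, 15.6% higher and 16.2% lower, so 8 of 18 (44.4%) stands beside a high background, and the difference between these shares was not tested. At least 2-fold changes were called for 3 members, COL8A1, COL2A1 and COL20A1, and for 4.81% of all genes tested. COL20A1 passed the low-count filter only through the libraries labelled shDNM1. The CPM of the groups did not overlap for 10 of the 18 members and for 44.3% of all genes tested. Those 10 include COL20A1 and also COL4A1, which likewise was tested only because of the libraries labelled shDNM1. Both were higher in that group. The median log2 fold change was -0.04 for the tested members and -0.01 for all genes, and the median absolute value 0.34 against 0.24. The summed collagen TPM was 329.7, 311.5 and 339.4 in shControl and 342.6, 279.1 and 316.3 in the libraries labelled shDNM1, overlapping between the groups. In both groups this was at most 0.0343% of all TPM.

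**Figure D2:**
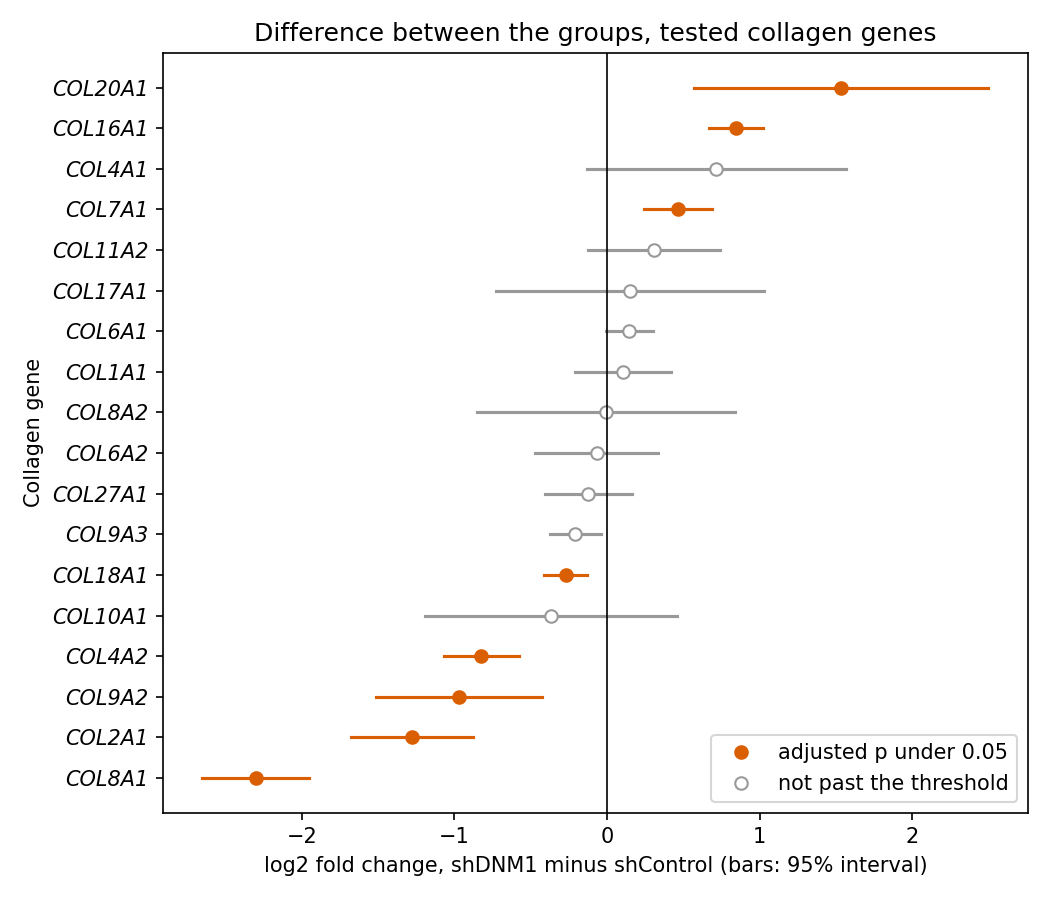
Log2 fold change of each tested collagen gene, libraries labelled shDNM1 minus shControl, with the 95% interval of the quasi-likelihood fit as a bar; filled points passed an adjusted p of 0.05. COL8A1 lies at -2.30 and COL20A1 at 1.53, and the intervals of COL8A2, COL17A1, COL10A1 and COL4A1 are the widest among those that did not pass.

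Among the 18 tested genes the largest change was in a short-chain network collagen. COL8A1 (ENSG00000144810, GRCh38 chromosome 3, 99638475 to 99799226, plus strand) encodes a chain of type VIII collagen, known from the hexagonal lattices under corneal endothelium and from vessel walls. It had 231, 239 and 280 counts in the shControl libraries and 51, 58 and 39 counts in those labelled shDNM1. Every library of the second group lay far under every control. On the CPM scale COL8A1 fell from 19.0 ± 2.27 to 3.85 ± 0.84 (SD, n = 3), to 20.3% of control (log2 fold change -2.30, SE 0.17, adjusted p = 1.20e-08). Its partner chain gene COL8A2 was low and lay at 0.89 ± 0.25 and 0.88 ± 0.094 CPM, with a 95% interval of the log2 fold change from -0.85 to 0.84. COL10A1, also of this class, the collagen of hypertrophic cartilage, had 23, 11 and 19 against 18, 11 and 11 counts and did not pass (adjusted p = 0.516). COL10A1 lies inside the position range of NT5DC1 on the other strand. That gene had 3500 counts in shControl and 2217 in the other group, a called fall (log2 fold change -0.62), and without stranded counting their reads cannot be told apart.

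Type IV collagen, the basement membrane sheet, is built in most tissues from the products of COL4A1 and COL4A2, which lie head to head on chromosome 13 and share a promoter. The stretch between their RefSeq starts is shown because both genes are read outwards from it. It runs from the base after the COL4A1 start to the base before the COL4A2 start, 126 bases at GRCh38.p14 chr13:110307158-110307283, plus strand, and capitals mark a CCAAT box and a GC box (GGGCGG).
COL4A1-COL4A2 interval: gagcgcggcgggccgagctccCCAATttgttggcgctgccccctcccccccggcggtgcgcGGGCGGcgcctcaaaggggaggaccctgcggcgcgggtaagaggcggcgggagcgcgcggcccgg
Its GC content was 80.2%, with 20 CpG dinucleotides, against medians of 60.3% and 6 in the 126 bases before the start of all 35116 RefSeq promoter windows. In windows of that length, 21.1% held CCAAT and 34.6% held GGGCGG on either strand. The letters of a TATA box (TATAAA, in 5.87% of these windows) did not occur in it. Those of an AP-1 site (TGANTCA, in 3.50%) did not either. All motifs were searched on both strands, and a match is a description of the letters, not a shown binding site.

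The mRNAs of COL4A1 and COL4A2 differed widely in level. Where their transcripts start in these cells was not tested. COL4A2 (ENSG00000134871, chromosome 13, 110305812 to 110513209, plus strand) had 336, 314 and 285 counts in shControl and 152, 180 and 182 in the libraries labelled shDNM1, without overlap. It fell from 23.6 ± 1.94 to 13.3 ± 1.35 CPM (SD, n = 3), to 56.5% of control (log2 fold change -0.83, SE 0.12, adjusted p = 2.86e-05). COL4A1 (ENSG00000187498, chromosome 13, 110148963 to 110307157, minus strand) had 12, 8 and 8 counts in shControl and 13, 19 and 13 in the other group. These groups did not overlap either, in the other direction, but COL4A1 did not pass (log2 fold change 0.72, SE 0.40, adjusted p = 0.193). With shControl replicates 2 and 3 under about 10 counts, COL4A1 was tested only because of the libraries labelled shDNM1. The ratio of COL4A2 to COL4A1 in TPM, which no scaling of libraries can move, was 28.4, 39.8 and 36.1 in shControl and 11.9, 9.61 and 14.2 in the libraries labelled shDNM1. In the deposited positions COL4A1 and COL4A2 overlap by 1345 bases, so some reads near their starts could belong to either. The antisense genes COL4A2-AS1 and COL4A2-AS2, which lie inside COL4A2, had 29 and 185 counts in shControl and 4 and 143 in the other group. The other basement membrane chains, COL4A3 to COL4A6, which form kidney, lung and smooth muscle networks, were too low for the test. COL4A4 and COL4A3, also head to head, had 15 and 6 counts over the shControl libraries and 19 and 13 over the others. COL4A6 had 1 and 5 counts and COL4A5 had 2 and 0.

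The fibril-forming class has 11 members, of which 4 were tested, 0 rose and 1 fell (of all genes tested 31.9% passed). COL2A1 (ENSG00000139219, chromosome 12, 47972967 to 48004554, minus strand), the homotrimeric main collagen of cartilage, had 116, 114 and 109 counts in shControl and 43, 56 and 37 in the libraries labelled shDNM1. The controls were close together and all above the other group. The level fell from 8.56 ± 0.28 to 3.54 ± 0.84 CPM (SD, n = 3), to 41.3% of control (adjusted p = 5.07e-05). COL1A1, a chain of the main collagen of bone, skin and scar, had 161, 127 and 152 against 146, 132 and 184 counts, and the groups overlapped (adjusted p = 0.643, 95% interval of the log2 fold change -0.21 to 0.42). Its partner COL1A2 had 1 count in 1 of 6 libraries. COL27A1, a long fibrillar collagen of cartilage, had 19.0 ± 1.47 and 17.5 ± 3.72 CPM (SD, n = 3, adjusted p = 0.536). COL11A2, a chain of the cartilage collagen XI, had 66, 62 and 52 against 86, 75 and 56 counts and did not pass either (adjusted p = 0.276).

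Among untested fibrillar members, COL5A3 and COL11A1 had most of their counts in 1 group. COL5A3, a chain that joins type V collagen in a few tissues, had 0, 1 and 2 counts in shControl and 13, 11 and 9 in the libraries labelled shDNM1. The ratio of summed counts, scaled by library, was 11.3, with an exact 95% interval of 3.54 to 57.5 that covers counting error only. COL11A1, the partner of COL11A2, had 17, 6 and 9 against 2, 3 and 4 counts, a ratio of 0.289 (0.121 to 0.619). With no filter on low counts edgeR called both, COL5A3 at an adjusted p of 0.000427 and COL11A1 at 0.0439, while DESeq2 gave neither an adjusted p. COL5A2, a second type V chain, had 30 and 23 counts in all and COL24A1 had 2 and 2. The same kind of interval was 1.42 to 17.8 for COL6A6, whose counts came mostly from shDNM1 replicate 1. It spanned 1 for COL5A2, COL4A4 and COL6A3.

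FACITs, collagens that bind to the surface of fibrils and have interrupted helices, number 10 members, of which 4 were tested, 2 rose and 1 fell. Among all genes tested 15.6% were called higher and 16.2% lower, and the difference from these shares was not tested. COL16A1 (ENSG00000084636, chromosome 1, 31652263 to 31704319, minus strand), a homotrimer found near epithelial and muscle basement membranes, had 630, 556 and 513 counts in shControl and 1068, 922 and 989 in the libraries labelled shDNM1. All 3 libraries of the second group were above all controls. COL16A1 rose 1.80-fold, from 42.9 ± 4.70 to 77.2 ± 5.04 CPM (SD, n = 3, adjusted p = 5.71e-07). PEF1-AS1, which overlaps it on the other strand, had 41 and 77 counts. COL20A1, a little-studied member, had 8, 3 and 11 against 29, 13 and 21 counts. With shControl replicates 1 and 2 under about 10 counts, it passed the low-count filter only through the group where it was higher. COL20A1 rose 2.90-fold (SE of the log2 value 0.46, adjusted p = 0.0156). That call rested on single libraries: without shControl replicate 2 its adjusted p was 0.0891 and without shDNM1 replicate 1 it was 0.0745, and on the log2(TPM + 1) scale it was 0.0959, within a range of 0.00482 to 0.0959 over 17 other settings.

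Type IX collagen, a FACIT of cartilage fibrils, is a trimer of the COL9A1, COL9A2 and COL9A3 chains. COL9A2 (ENSG00000049089, chromosome 1, 40300489 to 40317813, minus strand) had 42, 52 and 49 counts in shControl and 19, 22 and 30 in the libraries labelled shDNM1, without overlap. The level fell from 3.61 ± 0.34 to 1.84 ± 0.41 CPM (SD, n = 3), to 51.1% of control (adjusted p = 0.00774). COL9A3, the most abundant collagen mRNA per length, had 83.0 ± 5.71 TPM in shControl and 69.1 ± 7.56 TPM in the other group (SD, n = 3). Its 840, 898 and 953 against 804, 671 and 795 counts did not overlap, but the log2 fold change of -0.21 missed the threshold at an adjusted p of 0.0523. For COL9A3 that side changed under 6 of 18 other settings, including upper quartile scaling (adjusted p = 0.0417) and leaving out shDNM1 replicate 1 (adjusted p = 0.0149), and the range over all 18 was 0.00647 to 0.247. TCFL5, which overlaps COL9A3 on the other strand, had 1448 counts in shControl and 1050 in the other group and fell as well (log2 fold change -0.43, adjusted p = 0.0012). COL9A1 had 0 counts in all libraries.

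Bases before the RefSeq start of COL16A1, which rose, and of COL9A2, which fell, are printed to set a rising and a falling FACIT gene side by side. Each run is 250 bases, 5′ to 3′ on the gene's minus strand of GRCh38.p14, at chr1:31704018-31704267 for COL16A1 and chr1:40317287-40317536 for COL9A2. Capitals mark GC boxes (GGGCGG on either strand, some overlapping).
COL16A1 upstream: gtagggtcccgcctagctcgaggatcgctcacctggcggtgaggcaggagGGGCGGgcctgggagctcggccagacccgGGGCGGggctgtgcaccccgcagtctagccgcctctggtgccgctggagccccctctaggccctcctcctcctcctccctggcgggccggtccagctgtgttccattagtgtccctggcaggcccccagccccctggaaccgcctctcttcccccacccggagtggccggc
COL9A2 upstream: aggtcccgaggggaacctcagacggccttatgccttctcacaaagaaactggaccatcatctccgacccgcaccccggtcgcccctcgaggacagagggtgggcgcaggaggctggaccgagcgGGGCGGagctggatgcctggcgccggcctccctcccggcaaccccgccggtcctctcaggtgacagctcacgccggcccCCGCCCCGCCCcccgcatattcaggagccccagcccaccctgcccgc
Both were rich in G and C, 73.2% for COL16A1 and 71.6% for COL9A2, against a median of 58.0% over all 35116 windows of this length. They held 2 and 3 GC boxes, which 42.6% of all windows have at least once, and neither held CCAAT, which 32.0% of windows hold. The TATA and AP-1 letters, in 10.7% and 6.57% of windows, were in neither. RefSeq windows matched 32 of the 44 members by symbol, and 5 of the 8 that changed.

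COL7A1 (ENSG00000114270, chromosome 3, 48564073 to 48595329, minus strand) encodes the homotrimer of the anchoring fibrils that tie an epithelium to the tissue below. It had 1346, 1239 and 1427 counts in shControl and 2174, 1429 and 1795 in the libraries labelled shDNM1. Replicate 1 was the highest and replicate 2 lay just above the highest control. COL7A1 rose 1.38-fold, from 101.5 ± 9.49 to 139.7 ± 27.6 CPM (SD, n = 3, adjusted p = 0.00257). On the deposited TPM scale replicate 2, at 34.7 TPM, fell inside the control range of 29.6 to 36.1 TPM, and the call was lost on log2(TPM + 0.1) (adjusted p = 0.0998), on log2(TPM + 1) and with the robust fit (adjusted p = 0.0547). The TATA letters (TATAAA) were in 10.7% of all windows of 250 bases. A window of COL18A1, which fell, held them, as did windows of COL6A2, COL17A1 and COL10A1, which did not pass. The 250 bases before the COL7A1 start (GRCh38.p14 chr3:48595330-48595579, minus strand) are shown because they hold these letters, unlike the promoters printed above. The TATA letters, here on the opposite strand, and those of 3 GC boxes are in capitals.
COL7A1 upstream: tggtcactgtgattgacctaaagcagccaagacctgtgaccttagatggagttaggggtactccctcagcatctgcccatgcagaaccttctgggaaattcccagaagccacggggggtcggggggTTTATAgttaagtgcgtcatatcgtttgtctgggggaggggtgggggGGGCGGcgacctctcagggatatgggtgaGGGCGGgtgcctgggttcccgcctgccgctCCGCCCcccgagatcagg

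COL18A1 (ENSG00000182871, chromosome 21, 45405165 to 45513720, plus strand), a multiplexin of basement membranes whose end fragment is endostatin, fell to 82.8% of control (adjusted p = 0.00392). It had 2006, 2008 and 1925 counts in shControl and 1614, 1446 and 1738 in the libraries labelled shDNM1, without overlap. In deposited TPM its levels were 69.4 ± 2.41 and 55.3 ± 5.19 (SD, n = 3). SLC19A1, an overlapping gene on the other strand, had 1770 and 1780 counts. The second multiplexin, COL15A1, had 0 counts.

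Most mRNA for type VI collagen, which forms beaded filaments around cells, came from 1 chain gene. COL6A1 had 1047, 1133 and 1209 counts in shControl and 1293, 1148 and 1213 in the libraries labelled shDNM1. The groups overlapped and the gene did not pass (log2 fold change 0.15, adjusted p = 0.140). COL6A2, its neighbour on chromosome 21, had 78, 74 and 58 against 72, 64 and 59 counts (adjusted p = 0.822). COL6A3, which completes the usual trimer, had only 17 counts in shControl and 9 in the other group. COL6A6, which can take the place of COL6A3, had 4 and 17 counts, 14 of these in shDNM1 replicate 1. Among the 4 transmembrane collagens, COL17A1, a hemidesmosome protein of the epithelial base, was the only one tested, with 8, 20 and 21 against 10, 17 and 26 counts (adjusted p = 0.822). COL13A1 had 11 and 6 counts. The remaining members with counts were COL26A1 (7 and 8), COL12A1, a fibril-associated collagen (6 and 7), and COL28A1 (0 and 1).

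Chains that assemble together were thus present at unequal levels, and in part changed unequally. COL6A1 stood 13.6 ± 3.16 times above COL6A2 per length in shControl and 15.4 ± 1.24 times in the libraries labelled shDNM1 (SD, n = 3), and these ratios overlapped. COL9A3 stood 21.9 ± 1.67 times above COL9A2 in shControl and 38.3 ± 9.51 times in the other group, without overlap. COL8A1 stood 18.1 ± 3.32 and 3.60 ± 0.82 times above COL8A2, again without overlap. Of 7 such pairs that were compared, each with counts in every library, 6 had ratios that did not overlap between the groups. COL4A4 (11, 3 and 1 against 10, 3 and 6 counts) and COL4A3 (3, 1 and 2 against 7, 2 and 4) were left out. They too had counts in every library, so 6 of 7 depends on the pairs taken. Each of these 6 reached the exact two-sided permutation p of 0.1, the smallest possible for 3 against 3, or 0.117 after Benjamini-Hochberg adjustment over the 7, so this test cannot bring any of them under 0.05. Ratios with COL4A1, COL6A3 or COL11A1 rest on few counts. The pairs among COL6A1, COL6A2 and COL6A3 share chains and are not independent. No share over other gene pairs was computed to set beside 6 of 7. For single genes, the CPM of 44.3% of all tested did not overlap.

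**Figure D3:**
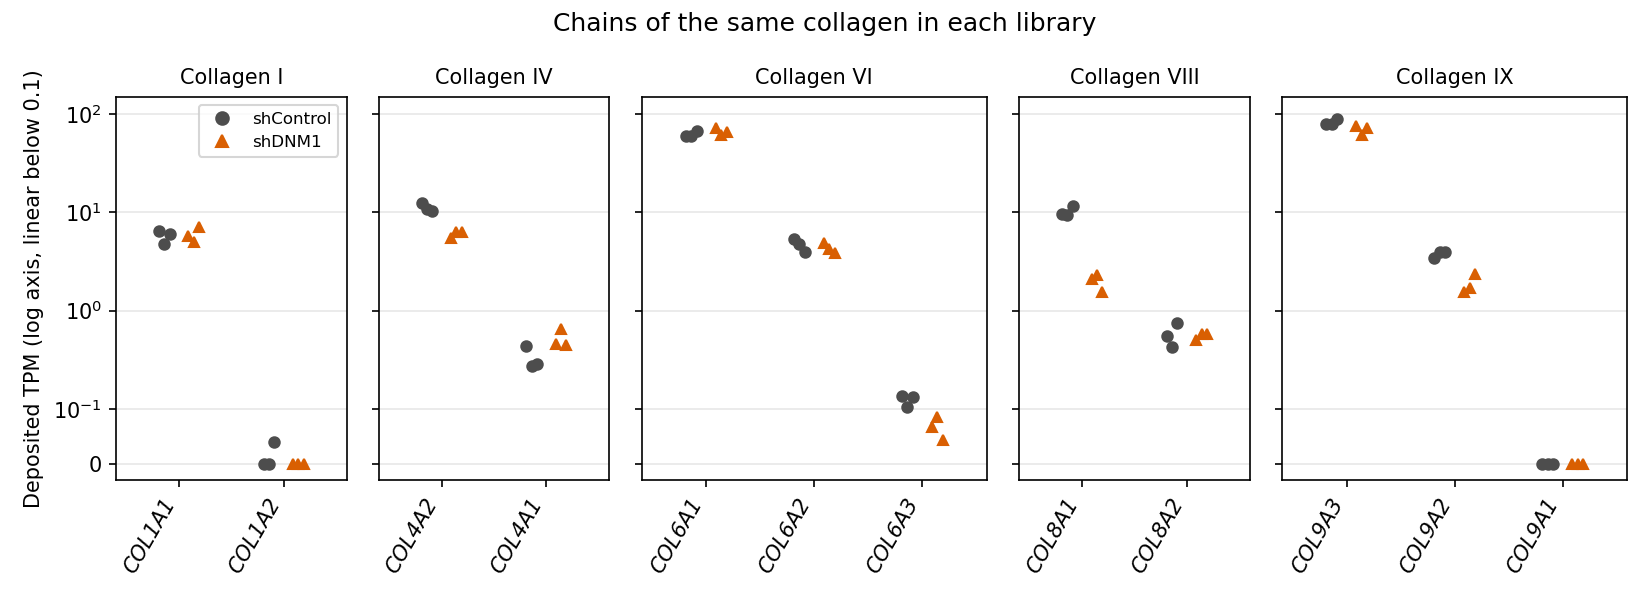
Deposited TPM (y axis, log scale above 0.1 and linear below) of chain genes of collagens I, IV, VI, VIII and IX, with 1 circle per shControl library and 1 triangle per library labelled shDNM1. In each collagen 1 chain gene is far above the others, and COL4A2, COL8A1 and COL9A2 are lower in the libraries labelled shDNM1 while the groups of COL8A2 and COL6A1 overlap.

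PI3K/Akt signalling is named in the title given to the series. The deposited KEGG annotation places 17 collagen genes in that pathway, since matrix collagens can signal to it through integrins. Of these, 8 were tested, 0 rose and 3 fell (COL2A1, COL4A2 and COL9A2), with a median log2 fold change of -0.14. With 31.9% of all tested genes called, and 16.2% called lower, 3 of 8 is no result about the pathway, and the difference was not tested. The KEGG focal adhesion and ECM-receptor interaction entries held the same 8 tested genes. The rising members COL16A1, COL7A1 and COL20A1 stand in none of these 3 entries. These are mRNA levels, and signalling was not measured in these files.

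Among genes that make, export, bind and break down collagen, changes went both ways. Of 107 listed genes in the table, 87 were tested, 24 rose, 19 fell and 44 did not pass (of all genes tested 31.9% passed), with a median log2 fold change of -0.01. In the list of hydroxylation and glycosylation enzymes, 2 of 14 tested rose and 5 fell. CRTAP, part of the complex that hydroxylates a proline of fibrillar collagens, had 499, 573 and 519 counts in shControl and 138, 185 and 141 counts in the libraries labelled shDNM1. It fell to 30.0% of control (adjusted p = 5.04e-09). PLOD2, the lysyl hydroxylase of collagen telopeptides, fell to 52.5%, and COLGALT2, a collagen galactosyltransferase, to 72.2% of control. P3H2, a prolyl hydroxylase that acts on type IV collagen, rose 2.02-fold, from 6.76 ± 0.72 to 13.7 ± 0.18 CPM (SD, n = 3).

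In the folding and export list 3 of 20 tested rose and 3 fell (of all genes tested 31.9% passed). The coat protein gene SEC23B and the GTPase gene SAR1A of the carriers that leave the endoplasmic reticulum rose to 125.3% and 118.5% of control, whereas TRAPPC2 fell to 66.4% and the disulfide isomerase gene PDIA3 to 83.3% of control. SERPINH1, the collagen-specific chaperone HSP47, had 133, 139 and 133 CPM in shControl and 108, 128 and 134 CPM in the other group. These values overlapped (adjusted p = 0.206). Of 13 tested genes for propeptide cleavage and crosslinking, 3 rose and 2 fell. The transglutaminase gene TGM2 rose 3.36-fold, from 71.1 ± 8.39 to 239.3 ± 8.48 CPM (SD, n = 3), PCOLCE2, an enhancer of procollagen cleavage, 1.58-fold, and the convertase gene FURIN to 124.8% of control. PXDN, the peroxidase that links type IV collagen molecules, had 14.8, 13.9 and 15.2 CPM in shControl and 4.12, 3.43 and 4.79 CPM in the other group, and fell to 28.2% (adjusted p = 9.76e-08).

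Receptors gave 6 higher and 3 lower of 13 tested. For all genes tested these shares were 15.6% higher and 16.2% lower. How this list and those below differ from them was not tested. The integrin subunit genes ITGA6, a laminin receptor chain, and ITGB1, the common partner of collagen-binding integrins, rose 1.46-fold and 1.35-fold. The collagen-binding subunit gene ITGA1 fell to 62.6%, the collagen-activated kinase gene DDR1 to 72.6% and CD44, a surface receptor for hyaluronan, to 34.8% of control. The related genes ITGA2 and DDR2 went the other way and were among the 6 called higher. In the list for breakdown and recycling, 5 of 11 tested rose and 3 fell. The collagenase gene MMP14 fell to 63.8% of control. Of the inhibitors of such proteases, TIMP1 rose 1.59-fold and TIMP2 1.48-fold, and TIMP3 fell to 41.2%. Among partner matrix proteins 5 of 16 tested rose and 3 fell, with the laminin chain genes LAMA3 2.11-fold and LAMB2 1.75-fold higher. TGFBI, a collagen-binding matrix protein, fell to 55.9% and the thrombospondin gene THBS1 to 27.6% of control.

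**Figure D4:**
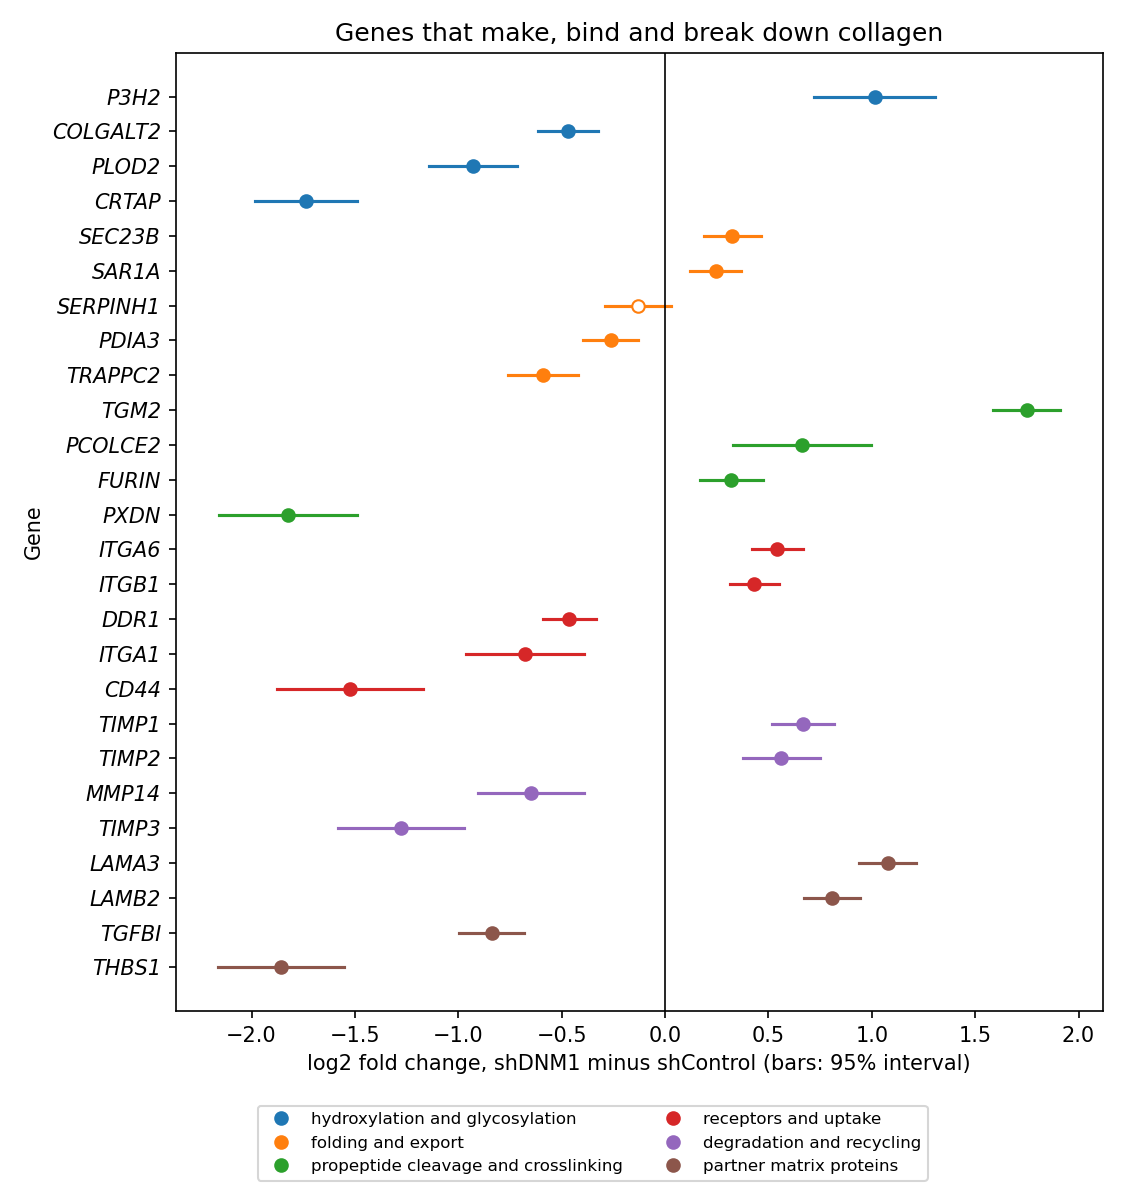
Log2 fold change with 95% interval for the named genes of the collagen pathway lists (ITGA2 and DDR2 not drawn), coloured by list, filled where the adjusted p was under 0.05. In every list named genes lie on both sides of 0, from -1.86 for THBS1 and -1.82 for PXDN to 1.75 for TGM2.

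Glycine and proline codons are rich in G and C. The longest GENCODE transcript of the 18 tested members had a median GC content of 62.1% against 48.6% over all tested genes, and a median length of 5720 against 3116 bases. The members that rose had 61.6% to 64.8% GC and those that fell 46.8% to 67.2%, and these ranges overlapped. With a trend on GC content removed from each library, all 8 calls were kept and COL9A3 was added (adjusted p = 0.00647).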

How the data were processed

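Per the submitters' processing notes the reads were placed on GRCh38. Not given in the sources used here are the aligner, the counter, the annotation release and the strand setting, which makes values of overlapping and antisense genes uncertain. The authors deposited a table of raw whole-number counts and a TPM table. The deposited TPM columns are treated as a score, because they sum to 1000000 only over unique names. Lines that share a name (2328 lines, 453 names) had identical values and were collapsed. Unused columns of per-sample values numbered 0.

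Counts were tested with edgeR 4.0.16 in R 4.3.3 (filterByExpr, TMM, two-sided quasi-likelihood F test) on all 16744 genes that passed, with Benjamini-Hochberg adjustment over these. Every adjusted p is from this test unless another is named. The test was also run on simulated data, with the same spread for every gene and no batch. That run does not show how well the test does on these libraries. CPM of untested genes use the same library scaling. Fold changes on the log2(TPM + pseudocount) scale understate changes of low genes. Promoters came from RefSeq (GRCh38.p14), GC content from GENCODE release 29 (96.7% of tested genes). Exact permutation tests used scipy 1.17.1. Tried besides were scaling by upper quartile, by RLE or by library size, other low-count filters, DESeq2 1.42.0, limma 3.58.1 (voom, and on log2 TPM with pseudocounts of 1 and 0.1), a robust fit, a replicate block, a threshold of 0.01, a 1.5-fold minimum, and each library left out. Removal of a GC trend was chosen after seeing the data.

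Genes named were all collagen rows, DNM1, up to 4 genes with the smallest p in each pathway list, and DDR1, ITGA1 and SERPINH1. Single markers, overlapping genes, ITGA2 and DDR2 were named after their values were seen. The members, lists and tests were chosen with earlier results of these data known.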

Additional observations from a re-analysis of the deposited data

How the results depend on the processing

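Of the 8 collagen calls, COL8A1, COL16A1, COL4A2, COL2A1, COL9A2 and COL18A1 kept their direction and passed 0.05 under each of 18 other settings, the 1.5-fold minimum apart, and COL7A1 and COL20A1 lost the call under 3 of 18 and 4 of 17. COL20A1 was not tested where a CPM of at least 1 in 3 libraries was required. On log2(TPM + 1) and on log2(TPM + 0.1), 1 collagen gene was higher. Against a 1.5-fold minimum, 1 collagen gene was higher and 2 lower, of all genes 251 higher and 340 lower, and of the pathway genes 4 higher and 7 lower. At a threshold of 0.01, 1739 of all genes were higher and 1764 lower. On log2(TPM + 1) all genes gave 1801 higher and 2846 lower, and with library size alone 2255 and 3103, beside 2617 and 2720. Leaving out 1 library at a time gave 2 to 4 collagen genes higher and 5 to 6 lower, and 1903 to 2939 of all genes higher and 2034 to 2951 lower. It gave 19 to 28 pathway genes higher and 16 to 19 lower. The summed collagen TPM in the libraries labelled shDNM1, 95.7% of shControl, ranged from 91.1% to 100.8% and was 103.0% in summed CPM. DNM1 ranged from -0.20 to -0.037 on the log2 scale when 1 library was left out, and was -0.20 with the GC trend removed, past the threshold without shDNM1 replicate 1 and in that last fit.

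Genes near 0 changed sign. COL1A1 ranged from -0.024 to 0.19 (log2) when 1 library was left out, COL6A2 from -0.18 to 0.033, COL17A1 from -0.21 to 0.43 and COL8A2 from -0.18 to 0.22. COL8A2 was 0.0085 with RLE, 0.0095 with DESeq2, 0.026 with limma-voom and 0.0023 with the replicate block. The cause was not tested. Same-numbered libraries deviated together weakly (correlations from -0.047 to 0.143), so the numbers were not taken as pairs. With the replicate block 3 collagen genes were higher and 6 lower, COL9A3 being added, with 2964 and 3116 over all genes. The 26 untested members had too few counts for the test at this depth. Without the low-count filter edgeR called COL5A3 and COL11A1 among them, and no other.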
